A study of Rattus norvegicus with 22 samples.

Results

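The 7 genes described here were the peroxisome proliferator-activated receptor genes Ppara, Ppard and Pparg, the heterodimer partner Rxra, the coactivators Ppargc1a and Ppargc1b and the estrogen-related receptor Esrra, out of 17334 genes measured in 22 kidneys. They were chosen by role and selected on their TPM and counts in all 22 rats by treatment label, read beside the urothelial gene Upk3a and the proximal tubule gene Slc34a1, with earlier results of these data known. Their differences between groups and their relation to both marker genes are therefore a description, not independent support for a pattern. All 7 genes passed the filter on low counts that left 12867 genes for testing.

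All animals were males of the polycystic strain PKD/Mhm, heterozygous for the Cy mutation (Cy/+), and were 8 months old. Untreated rats (n = 6) were compared with rats given human adipose-derived stromal cells intraperitoneally (i.p. ASC, n = 6) or intravenously (i.v. ASC, n = 6), and with rats given conditioned medium (ASC-derived CM, n = 4). Cells were given monthly for 6 months, 2000000 per injection. The labels of the conditioned medium rats name neither the source cell nor the route, the study's methods give the intravenous route, and the series description gives the intraperitoneal route. Every group carried the Cy allele, so no non-cystic kidney was available for comparison here, and rats given ABCB5+ cells were not analysed here. Total RNA of the snap-frozen left kidney was sequenced on the BGISEQ-500 platform, with 12195682 to 14734772 estimated counts per rat. Each kidney was a separate rat, identified by the animal number in its label, and rats are named by that number below. All 12 proximal tubule markers on the list used here, and all 5 of the thick ascending limb, were above 0 in every rat. In bulk RNA, fewer cells of a type and less RNA per cell cannot be told apart.

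PPARs are nuclear receptors that bind fatty acids and their derivatives, pair with a retinoid X receptor such as RXRα, and occupy DNA repeats of an AGGTCA-like half-site. PPARα is best known for switching on fatty acid oxidation in liver, heart and proximal tubule, PPARδ is widely expressed and also acts on fatty acid use, and PPARγ drives adipocyte differentiation and is present in collecting duct and urothelium. PGC-1α and PGC-1β, encoded by Ppargc1a and Ppargc1b, do not bind DNA themselves but are recruited by PPARs and by ERRα, the product of Esrra, to raise mitochondrial gene transcription.

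The 250 bases upstream of the annotated start are shown for Pparg and Ppargc1a, the members whose levels differed most between rats by treatment group and by animal number, respectively. The windows are RefSeq sequence of the assembly GRCr8, 5′ to 3′ on the + strand, and 6 of the 7 members had at least 1 window (7 windows in all, Ppard without). Capitals mark the half-site letters AGGTCA or GGGTCA or the cAMP response element letters TGACGTCA, searched on both strands. TGACGTCA is its own reverse complement.

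Pparg, upstream start, chr4:150096808-150097057: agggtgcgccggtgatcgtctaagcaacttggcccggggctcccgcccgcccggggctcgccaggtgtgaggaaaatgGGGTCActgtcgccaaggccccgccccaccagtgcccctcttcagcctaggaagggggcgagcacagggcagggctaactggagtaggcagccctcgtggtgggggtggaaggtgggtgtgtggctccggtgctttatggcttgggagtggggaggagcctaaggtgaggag
Pparg, downstream start, chr4:150154522-150154771: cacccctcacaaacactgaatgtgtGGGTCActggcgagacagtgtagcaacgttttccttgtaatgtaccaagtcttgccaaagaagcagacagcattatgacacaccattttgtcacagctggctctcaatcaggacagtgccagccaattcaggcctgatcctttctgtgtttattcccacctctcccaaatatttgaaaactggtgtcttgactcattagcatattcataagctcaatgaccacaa
Ppargc1a, chr14:63634058-63634307: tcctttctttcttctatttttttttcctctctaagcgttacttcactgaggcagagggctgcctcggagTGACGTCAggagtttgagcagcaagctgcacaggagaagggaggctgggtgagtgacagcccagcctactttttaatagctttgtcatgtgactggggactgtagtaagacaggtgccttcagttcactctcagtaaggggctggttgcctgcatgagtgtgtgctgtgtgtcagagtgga

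Both Pparg windows held GGGTCA, which 11.9% of 33469 promoter windows of the same length held. The Ppargc1a window held TGACGTCA, held by 1.59% of windows. None of the 7 windows of the members held AGGTCA, found in 14.1% of windows, which says only that these letters are not in the windows. The deposited values are per gene, so the starts of Pparg, which give rise to its different isoforms, were not separated.

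Esrra was the most abundant of the 7 genes, at 70.2 TPM (a level scaled by transcript length and library size) on average over the 22 rats, and the most even, ranging from 62.5 to 78.8 TPM. Rxra followed at 32.5 TPM (21.2 to 42.6), then Ppard at 21.2 TPM (13.5 to 28.1) and Ppargc1a at 18.1 TPM (8.41 to 29.98). Esrra did not overlap with Rxra in any rat, whereas the ranges of Rxra and Ppard overlapped, as did those of Ppard and Ppargc1a. Ppargc1b at 2.54 TPM (1.67 to 3.63), Pparg at 2.45 TPM (0.897 to 11.1) and Ppara at 2.42 TPM (1.17 to 4.52) were low and could not be ordered. Ranked by mean TPM among the 12867 tested genes, Ppara stood at percentile 12.9 and Esrra at percentile 81.7.

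The low receptors rested on few reads. Ppara had 23 to 79 estimated counts per rat, Pparg 16 to 195 and Ppargc1b 53 to 122, against 1280 to 1660 for Esrra. Counting error alone gives a coefficient of variation of 14.8% for Ppara, 15.1% for Pparg and 2.64% for Esrra. The pooled spread between rats of a group was 30.9% for Ppara and 7.21% for Esrra, which holds both counting error and differences between rats. For Pparg it differed by group, at 25.5% in untreated, 25.3% in i.p. ASC, 82.2% in i.v. ASC and 18.4% in ASC-derived CM rats. The counting error of 15.1% is a single value for all rats, whose median was 30 counts, so it is not that of each group.

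**Figure D1:**
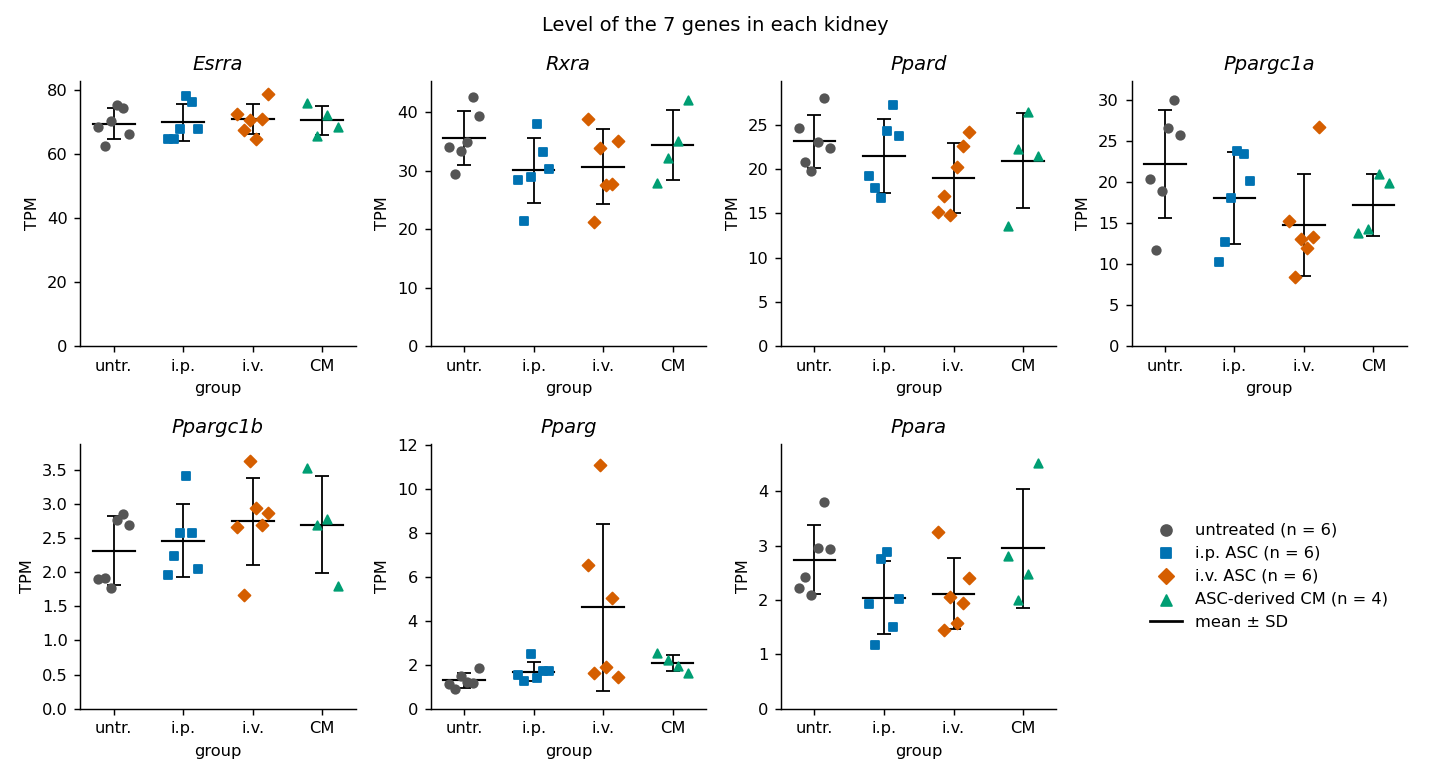
Level of the 7 genes in each kidney, in TPM on linear axes from 0, by group (untreated, i.p. ASC, i.v. ASC and ASC-derived CM), with points for rats and black bars for the mean ± SD. The i.v. ASC rats at 5.02, 6.53 and 11.1 TPM of Pparg stand above all other rats, which lie between 0.897 and 2.53 TPM. The groups overlap in every gene, also in Pparg, where the remaining i.v. ASC rats lie between 1.44 and 1.91 TPM.

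No member, and no other gene, passed an adjusted p-value of 0.05 against untreated kidneys in edgeR's quasi-likelihood test. The share of genes called was 0% after i.p. ASC, 0% after i.v. ASC and 0% after ASC-derived CM, with smallest adjusted p-values over all genes of 0.771, 0.142 and 0.194. At an unadjusted p under 0.05 edgeR picked 500 of 12867 genes (3.89%) after i.p. ASC, 1133 (8.81%) after i.v. ASC and 849 (6.6%) after ASC-derived CM, including 0, 3 and 0 of the 7 members. The 3 were Pparg, Ppargc1a and Esrra. DESeq2, the tool the study names, called 0 of 15266 genes (0%), 28 (0.183%) and 4 (0.0262%), and Pparg after i.v. ASC was the only member among them. No member's treated and untreated rats were fully apart on the log2 CPM scale (counts scaled to library size) in any comparison, a separation that 0.14%, 0.179% and 1.42% of all genes had after i.p. ASC, i.v. ASC and ASC-derived CM.

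Pparg, the adipogenic receptor, was higher after i.v. ASC by 1.92 on the log2 scale (SE 0.41), a 3.77-fold difference. The values of the i.v. ASC rats were 6.53 TPM in rat 3, 1.64 in rat 8, 11.1 in rat 9, 1.91 in rat 10, 5.02 in rat 13 and 1.44 in rat 14. Untreated rats had 1.15 TPM in rat 1, 0.897 in rat 12, 1.503 in rat 18, 1.22 in rat 22, 1.16 in rat 23 and 1.84 in rat 24. Rats 3, 9 and 13 were thus above every other rat of the study, and the remaining 3 i.v. ASC rats lay within or just above the untreated range. The adjusted p-value was 0.169 with edgeR and 0.0035 with DESeq2, so the call depended on the tool. It also depended on single rats, since edgeR called the gene without rat 8 (adjusted p-value 0.048) or without rat 14 (0.0226), both low in Pparg, and gave 1.43 on the log2 scale without rat 9.

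The same 3 rats had the highest urothelial RNA of the study. Upk3a, which encodes a uroplakin of the urothelial plaque, was at 68.3 TPM in rat 3, 130 TPM in rat 9 and 22.3 TPM in rat 13. In the other 19 rats it was between 0 and 3.35 TPM, with the next highest values in i.v. ASC rat 10 (3.35 TPM) and untreated rat 23 (3.30 TPM). Upk1a, Upk1b, Upk2, Krt5 and Psca were also highest in these 3 kidneys. Krt20, a keratin of the surface cells, was not, at 1.03 TPM in rat 3, 3.57 TPM in rat 9 and 0.179 TPM in rat 13 against up to 0.500 TPM in the other rats. Upk2 was at 80.6, 134 and 20.1 TPM in rats 3, 9 and 13 and Krt5, a basal keratin, at 10.95, 42.7 and 8.39 TPM. The 7 urothelial markers summed to 371, 633 and 243 TPM there, against 7.13 to 39.4 TPM in all other rats, and Psca was the most abundant of them at 22.8 TPM on average. Of the 6 urothelial markers tested, all 6 were higher after i.v. ASC, with a median of 4.70 on the log2 scale. None passed the threshold of 0.05 with edgeR's test. Upk3a had at most 33 estimated counts in any rat other than 3, 9 and 13. It passed the filter on low counts mainly through i.v. ASC rats, as did Upk2 and Krt5, so these differences are a description.

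Among the 3 rats, Pparg and Upk3a were both highest in rat 9 and lowest in rat 13, whereas Psca was at 118 TPM in rat 13, 87.5 in rat 9 and 46.9 in rat 3. Upk3a was part of the choice of the genes. Markers of collecting duct principal cells, where PPARγ is also known, summed to 2361 TPM in rat 9 and 2103 in rat 13, the highest of the study, but to 1152 in rat 3, and the next highest was 1718 in untreated rat 12. Of these 5 markers 4 were higher after i.v. ASC, with a median of 0.19 on the log2 scale. An unadjusted p under 0.05 in edgeR's test was reached by 2 of them and by 8.81% of all genes. Their part in the level of Pparg was not tested. With the urothelial marker score as a covariate the i.v. ASC value of Pparg was 0.22 on the log2 scale (SE 0.27) in place of 1.92, and without rats 3, 9 and 13 it was 0.44 (SE 0.26). These rats are also the 3 highest in Pparg and the score contains Upk3a, so a lower value follows from how both settings were made and shows no source of the Pparg RNA. With the proximal tubule score as a covariate it was 1.82 (SE 0.40). The part of urothelial RNA in the level of Pparg was not tested. Because Upk3a split the rats into separate clusters, no pooled correlation is given. Over the 19 rats outside the high cluster, Spearman's rho of Pparg with Upk3a was 0.43 and Pearson's r was 0.07, as a description, with most Upk3a values resting on 0 to 4 estimated counts.

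**Figure D2:**
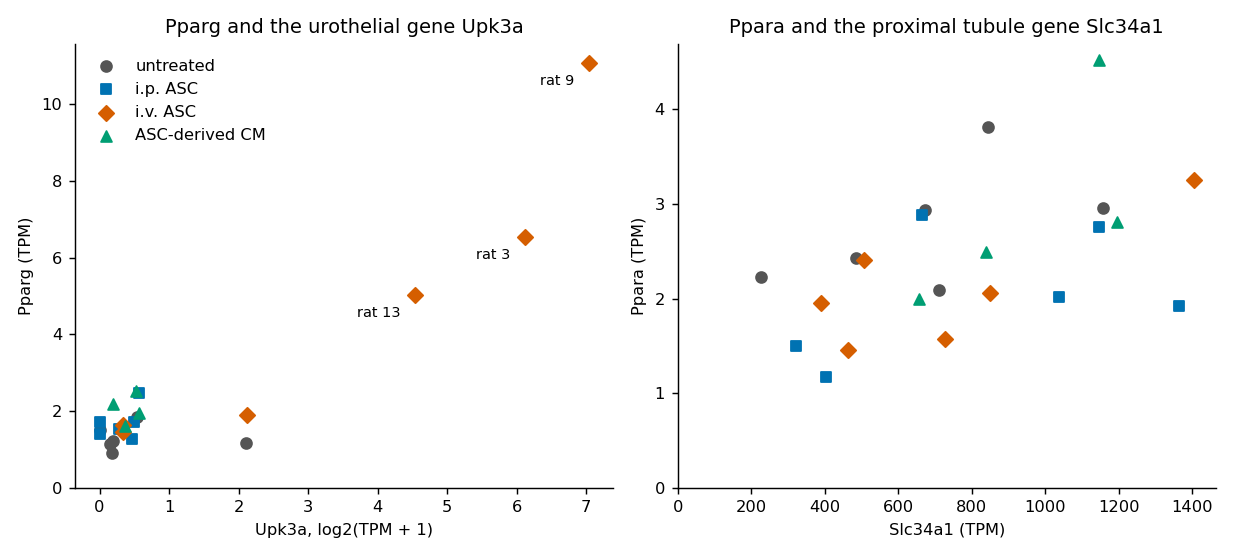
Left, Pparg in TPM against Upk3a on the log2(TPM + 1) scale. Right, Ppara in TPM against Slc34a1 in TPM. Each point is a kidney and shapes give the group. Rats 3, 9 and 13 of i.v. ASC lie apart at the upper right on the left side, and on the right Ppara tends to be higher where Slc34a1 is higher, with wide scatter.

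After i.p. ASC, Pparg was at 1.54, 1.27, 2.48, 1.40, 1.72 and 1.72 TPM in rats 5, 6, 7, 15, 16 and 17, a log2 difference of 0.50 from untreated (SE 0.42, adjusted p-value 0.789 with edgeR). After ASC-derived CM it was at 2.53, 2.20, 1.961 and 1.62 TPM in rats 2, 11, 19 and 21, a log2 difference of 0.80 (SE 0.46, adjusted p-value 0.736 with edgeR). Both groups had higher means than untreated rats, both overlapped them, and neither contained urothelial RNA at the level of rats 3, 9 and 13. The fit with only 2 groups narrowed the standard error to 0.21 for i.p. ASC and 0.23 for ASC-derived CM, and edgeR gave adjusted p-values of 0.66 and 0.405.

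Ppara, the receptor of fatty acid oxidation, was at 2.09 to 3.81 TPM in untreated rats (median 2.69) and at 1.17 to 2.88 TPM (median 1.97) after i.p. ASC. It was at 1.45 to 3.26 TPM (median 2.01) after i.v. ASC and at 2.80, 2.00, 2.49 and 4.52 TPM in rats 2, 11, 19 and 21 after ASC-derived CM. All groups overlapped. The log2 differences from untreated were -0.33 (SE 0.24), -0.25 (SE 0.23) and 0.18 (SE 0.26), with adjusted p-values of 0.772, 0.646 and 0.933 in edgeR's test. The last of these had the opposite sign, -0.0624, without rat 21. The 95% intervals reached from a 0.579-fold to a 1.10-fold level after i.p. ASC and from 0.611-fold to 1.16-fold after i.v. ASC, so a moderate difference in Ppara was not detectable at this depth and spread.

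Ppara went with Slc34a1, the sodium-phosphate cotransporter of the proximal tubule. Pearson's r on the log2(TPM + 1) scale was 0.53 and Spearman's rho 0.52 over the 22 rats, 0.59 and 0.62 after centring on group means, and 0.54 and 0.49 without the 2 rats farthest from the median of Slc34a1. Slc34a1 itself ran from 228 to 1405 TPM. Its means ± SD were 683 ± 316 TPM in untreated (n = 6), 823 ± 423 in i.p. ASC (n = 6), 723 ± 376 in i.v. ASC (n = 6) and 960 ± 255 in ASC-derived CM rats (n = 4), and every group overlapped the others. For the other members r over all rats was 0.27 for Rxra, 0.25 for Pparg, 0.21 for Ppargc1b, 0.06 for Esrra and 0.02 for Ppargc1a, and Ppard went the other way at -0.38. The r of Ppard was -0.23 without the 2 farthest rats and -0.53 on log2 CPM. In the untreated rats alone (n = 6) r was 0.57 for Ppara, 0.64 for Ppargc1b, 0.56 for Esrra and 0.46 for Ppargc1a. There it was 0.37 for Rxra, 0.27 for Pparg and -0.0076 for Ppard. Within rats 1 to 13 (n = 12) and rats 14 to 24 (n = 10), r was 0.50 and 0.63 for Ppara, -0.68 and -0.34 for Ppard and 0.29 and 0.21 for Rxra. The sign differed between these ranges of animal number for Pparg (0.39 and -0.19), Ppargc1b (0.46 and -0.30) and Esrra (0.30 and -0.46). The points of these correlations share the library and the piece of kidney, and the marker was part of the choice of the genes, so they are descriptions.

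Ppard, the most abundant PPAR receptor in these kidneys by TPM, was at 19.8 to 28.1 TPM in untreated rats (median 22.8), 16.7 to 27.2 TPM after i.p. ASC (median 21.5) and 14.8 to 24.2 TPM after i.v. ASC (median 18.6). It was at 13.5, 22.3, 26.4 and 21.5 TPM in rats 2, 11, 19 and 21 after ASC-derived CM. The groups overlapped. The log2 differences were -0.02 (SE 0.11), -0.18 (SE 0.11) and -0.09 (SE 0.13), with adjusted p-values of 0.973, 0.537 and 0.935 in edgeR's test. The 95% interval after i.p. ASC ran from 0.848-fold to 1.15-fold.

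Rxra, which encodes one of the retinoid X receptors that PPARs pair with, was at 29.5 to 42.6 TPM in untreated rats (median 34.5), 21.5 to 38.0 TPM after i.p. ASC (median 29.6) and 21.2 to 38.9 TPM after i.v. ASC (median 30.8). The ASC-derived CM rats had 28.0, 32.3, 35.2 and 42.2 TPM. Rats 6 (i.p. ASC, 21.5 TPM) and 8 (i.v. ASC, 21.2 TPM) were the lowest, and all groups overlapped. The log2 differences were -0.16 (SE 0.12), -0.10 (SE 0.12) and 0.0098 (SE 0.13), with adjusted p-values of 0.772, 0.712 and 0.998 in edgeR's test, and the last had the opposite sign on the TPM scale, with a surrogate variable and with the proximal tubule score as a covariate.

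Rxra and Ppara varied together over the rats, with Spearman's rho of 0.71 on the log2 CPM scale and 0.72 after centring on group means. Both were the highest among the 21 pairs of members. The next pair depended on centring, with Ppargc1b and Esrra at 0.54 before and 0.35 after it, and Ppargc1a and Rxra at 0.45 before and 0.61 after. Ppard and Pparg ran opposite, at -0.49 and -0.46. Rats 6 and 8 were the lowest in both genes, with 21.5 and 21.2 TPM of Rxra and 1.17 and 1.45 TPM of Ppara, and rats 21 and 23 were the highest in both. The mean log2 CPM of 8 markers of injured or dedifferentiated tubule had a rho of -0.65 with Ppara and -0.47 with Rxra. For the lymphocyte markers rho was -0.49 and -0.40, and for the 12 proximal tubule markers 0.50 and 0.32. The 3 erythrocyte markers had rho of 0.37 with Ppara and 0.70 with Rxra. The part of these cell types in the levels of both genes was not tested.

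**Figure D3:**
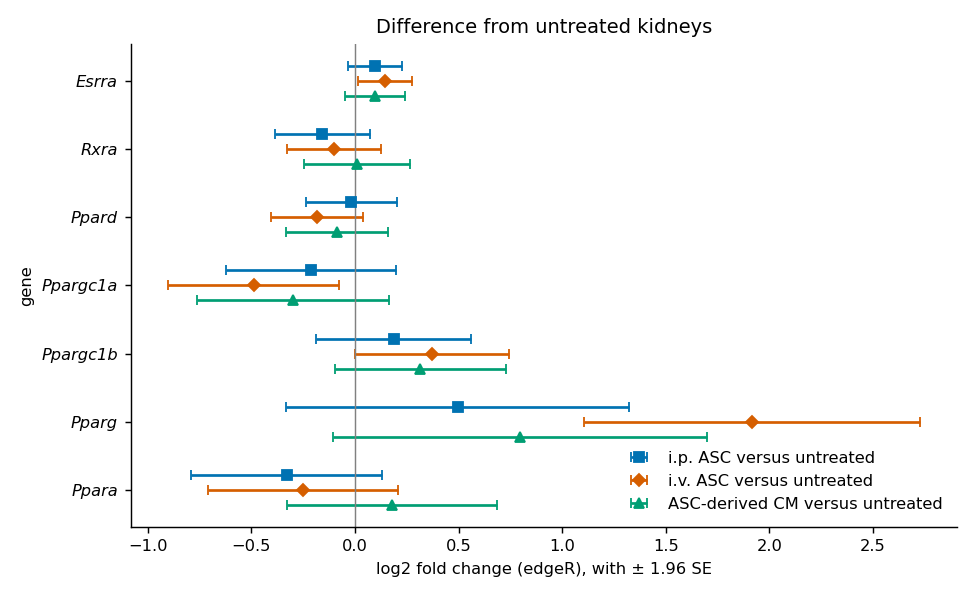
Log2 fold change of each gene against untreated kidneys from edgeR, with 95% intervals, for i.p. ASC, i.v. ASC and ASC-derived CM. Pparg after i.v. ASC lies farthest from 0, at 1.92, and the other 20 values lie between -0.49 and 0.80.

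Ppargc1a, which encodes the coactivator PGC-1α, was lower after i.v. ASC by -0.49 on the log2 scale (SE 0.21), with an unadjusted p of 0.0308 and an adjusted p-value of 0.523 in edgeR's test. Its level was 11.7 to 29.98 TPM in untreated rats (median 23.1) and 10.2 to 23.7 TPM after i.p. ASC (median 19.1). It was 15.2 TPM in rat 3, 8.41 in rat 8, 13.1 in rat 9, 12 in rat 10, 13.3 in rat 13 and 26.7 in rat 14 after i.v. ASC. After ASC-derived CM it was 13.8, 14.2, 20.97 and 19.8 TPM in rats 2, 11, 19 and 21. Only rat 14 among the i.v. ASC rats was in the upper part of the untreated range. The log2 differences after i.p. ASC and ASC-derived CM were -0.21 (SE 0.21) and -0.30 (SE 0.24), and edgeR's adjusted p-values 0.817 and 0.837. Over the 22 rats the rho of Ppargc1a with the mean log2 CPM of podocyte markers was 0.69. It was 0.66 for distal convoluted tubule, 0.61 for endothelial, -0.67 for adipocyte and -0.54 for injured tubule markers. The adipocyte value rested on 3 genes and is no measure of adipocyte content. Among them was Cidec, which went with the proximal tubule gene Kap, with rho of 0.97 on TPM. After i.v. ASC the podocyte, distal convoluted tubule and endothelial markers had medians of -0.62, -0.69 and -0.31 on the log2 scale. The part of these markers in the level of Ppargc1a was not tested.

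Ppargc1a tended to be higher in rats with higher animal numbers, a pattern noticed in these data. Among rats 1 to 13 it was at 8.41 to 20.4 TPM, and among rats 14 to 24 at 18.95 to 29.98 TPM. Within the untreated group the rats with numbers up to 13 had 11.7 and 20.4 TPM and those from 14 on 18.95 to 29.98 TPM. Within i.p. ASC, rats 5, 6 and 7 had 10.2 to 18.1 TPM and rats 15, 16 and 17 had 20.2 to 23.7 TPM. ASC-derived CM rats had 13.8 and 14.2 TPM below number 14 and 19.8 and 20.97 TPM above it. The 5 i.v. ASC rats below number 14 had 8.41 to 15.2 TPM, and the 1 above it had 26.7 TPM. On the log2 CPM scale over the 22 rats, Pearson's r with the number was 0.60 and Spearman's rho 0.61, with r of 0.67 without the 2 farthest numbers, given as descriptions because the pattern was noticed in these data. In edgeR's test with the number as a linear term, Ppargc1a was higher by 0.29 on the log2 scale per 10 numbers (SE 0.11, adjusted p-value 0.0671).

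The animal number was not spread evenly over the groups. Of the i.v. ASC rats 5 of 6 were numbered 13 or below, against 2 of 6 untreated rats, 3 of 6 i.p. ASC rats and 2 of 4 ASC-derived CM rats. With the number as a covariate, the i.v. ASC value of Ppargc1a was -0.28 (SE 0.20) in place of -0.49. Within rats 1 to 13 the mean was 12.4 TPM after i.v. ASC (SD 2.51, n = 5) and 16.1 TPM in untreated rats (SD 6.13, n = 2). The labels do not say whether the number marks a batch, a litter or an order of processing, and its part in the difference was not tested. Across all genes the number went with the level of 1707 of 12867 genes (13.3%) in edgeR's test, and with 0 of the 7 members. Ppard, at 0.14 per 10 numbers (SE 0.06, adjusted p-value 0.11 from edgeR), had rho of 0.47 on the same scale. Of the other members, Ppara, Rxra and Pparg had rho of 0.16, 0.21 and -0.39 on log2 CPM and 0.38, 0.57 and -0.23 on TPM. The sign turned between the scales for Esrra and Ppargc1b. For Esrra rho was -0.42 on log2 CPM but 0.25 on TPM, and for Ppargc1b -0.22 and 0.10.

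The number also went with transcript length, which was inferred for each gene from its estimated count divided by its TPM. The mean log2 CPM of the 2574 genes with the longest transcripts minus that of the 2574 with the shortest had a rho of 0.72 with the number over the 22 rats, and Ppargc1a on log2 CPM had a rho of 0.79 with this difference. On that scale the same measure was 0.64 for Ppard, 0.54 for Rxra, 0.38 for Ppara, -0.07 for Ppargc1b, -0.44 for Esrra and -0.47 for Pparg. On TPM it was 0.90 for Ppargc1a, 0.81 for Ppard, 0.85 for Rxra, 0.63 for Ppara, 0.28 for Ppargc1b, 0.51 for Esrra and -0.30 for Pparg, so the sign turned for Ppargc1b and Esrra. Ppargc1a is near the middle of the range of inferred length, at the 58.7th percentile. By group the length difference averaged 0.0922 ± 0.142 in untreated rats (SD, n = 6), -0.0357 ± 0.165 after i.p. ASC (n = 6), -0.0786 ± 0.141 after i.v. ASC (n = 6) and 0.0332 ± 0.179 after ASC-derived CM (n = 4), so that it was highest in untreated rats and lowest after i.v. ASC, as were the mean TPM levels of Ppargc1a. The part of this property of the libraries in the levels of the members was not tested.

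**Figure D4:**
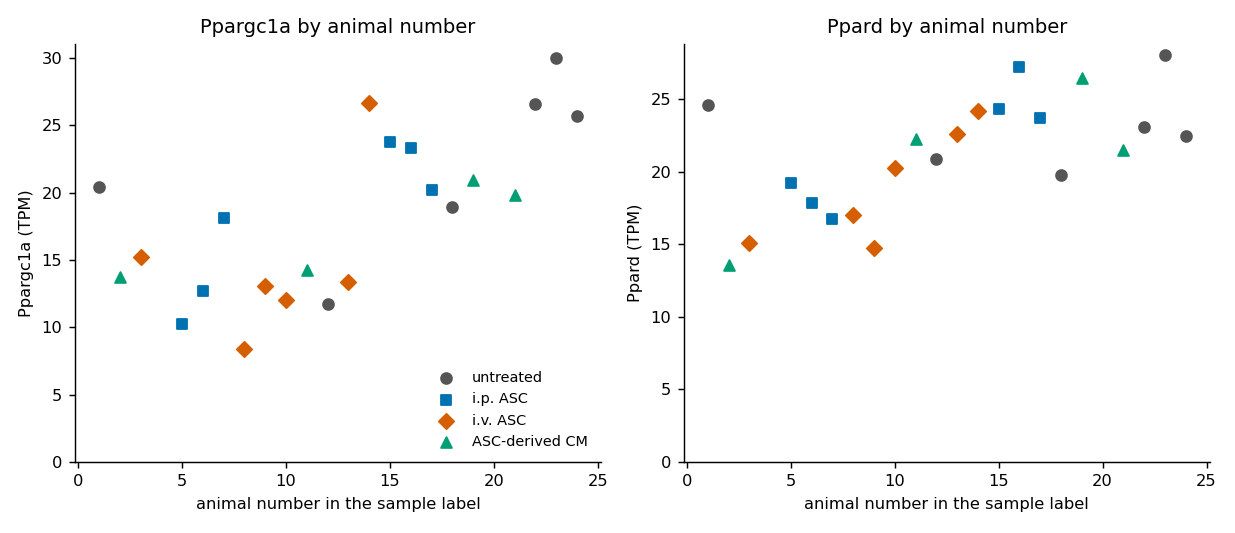
Ppargc1a (left) and Ppard (right) in TPM against the animal number in the label, 1 point per kidney with shapes for groups. Ppargc1a is at or below 20.4 TPM in all rats up to number 13 and at or above 18.95 TPM from number 14 on.

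Ppargc1b, which encodes PGC-1β, was at 1.76 to 2.85 TPM in untreated rats (median 2.30), 1.95 to 3.40 TPM after i.p. ASC (median 2.40) and 1.67 to 3.63 TPM after i.v. ASC (median 2.77). The ASC-derived CM rats had 3.52, 2.68, 2.77 and 1.79 TPM. The mean was higher than untreated in each treated group, with log2 differences of 0.19 (SE 0.19), 0.37 (SE 0.19) and 0.31 (SE 0.21), and no adjusted p-value in edgeR's test was under 0.523. Its sign was opposite to that of Ppargc1a in each of the 3 comparisons, all of which share the untreated rats.

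Esrra, whose product binds estrogen-related response elements of mitochondrial genes, was within a narrow range in all groups. It was at 62.5 to 75.2 TPM in untreated rats (median 69.3), 64.7 to 78.0 TPM after i.p. ASC (median 67.7), 64.8 to 78.8 TPM after i.v. ASC (median 70.8) and 76.0, 65.6, 72.1 and 68.5 TPM in the ASC-derived CM rats. The log2 differences were 0.10 (SE 0.07), 0.14 (SE 0.07) and 0.10 (SE 0.07), the second with an unadjusted p of 0.0424 and an adjusted p-value of 0.523 in edgeR's test. The 95% interval after i.v. ASC ran from 1.01-fold to 1.21-fold. On TPM the group means were nearly equal, at 69.4 in untreated rats, 69.9 after i.p. ASC, 70.9 after i.v. ASC and 70.6 after ASC-derived CM, and the median after i.p. ASC was below that of untreated rats.

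By the same measure over the 22 rats, the genes most like each member were named. For Pparg these were Kctd6, Cldn23, a claudin, and Gpa33, with rho of 0.85, 0.84 and 0.84, and the least alike were Cd1d1 and Pde7a at -0.86 and -0.84. For Ppara they were Prkaa2, the catalytic α2 subunit of AMP-activated kinase, Pals1 and Pdpr, with rho of 0.87, 0.86 and 0.83, and Snrpf and Btg1 were lowest at -0.84 and -0.82. Rxra was nearest to Gtf3c4, Mib1 and Erc1 (0.85, 0.83 and 0.82) and farthest from Mtch1 and Ppp1r8 (-0.78 for both). For Ppard the nearest were Tenm3, Afap1l1 and the Wnt coreceptor gene Lrp5 (0.83, 0.82 and 0.81) and the farthest Phlda2 and Ndufaf4 (-0.85 and -0.80).

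Ppargc1a had the tightest neighbours, Acvr1b, an activin receptor gene, Pcmtd2 and Klhl9, at 0.93, 0.92 and 0.90, and ran against Fis1, a mitochondrial fission gene, and Ubxn1 at -0.89 and -0.88. Esrra was nearest to Eva1a, Dynll2 and Ppif, which encodes mitochondrial cyclophilin D, at 0.87, 0.81 and 0.80, and farthest from Kif2a and Iffo2 at -0.78 and -0.77. Ppargc1b had the loosest neighbours, Etnk1, Ankrd9 and LOC100910558, at 0.76, 0.76 and 0.72, with Plac8 and Ptgds at -0.81 and -0.78. These genes are the extremes of all genes tested, over the same libraries.

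The other genes of the pathway were taken from 8 lists written from general knowledge. No gene of any list passed the threshold of 0.05 in edgeR's test in any comparison, as was the case for all genes. Rxrb, another retinoid X receptor gene, singled out after its values were seen, was more abundant than Rxra by mean TPM in each group, at 47.9 ± 4.90 TPM (n = 6, SD) in untreated rats. In the list of 14 receptors that share RXR as a partner or resemble it, 5 were higher after i.p. ASC, 6 after i.v. ASC and 11 after ASC-derived CM, with medians of -0.03, -0.02 and 0.04 on the log2 scale. With the animal number as a covariate these medians were 0.0065, 0.0071 and 0.0445, so the direction turned after i.p. ASC and i.v. ASC. The most abundant of the 14 were Nr1h2, the liver X receptor β gene, at 122 TPM, Hnf4a, a hepatocyte and proximal tubule factor, at 105 TPM and Thra, a thyroid hormone receptor gene, at 60.2 TPM. Hnf4a was at 79.3 ± 15.9 TPM (n = 6, SD) in the untreated group and 112 ± 65.4 TPM (SD, n = 6) after i.p. ASC, a log2 difference of 0.61 (SE 0.39, adjusted p-value 0.771 with edgeR).

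Of the 13 coactivators and corepressors tested, 1 was higher after i.p. ASC, 0 after i.v. ASC and 5 after ASC-derived CM, with medians of -0.08, -0.10 and -0.04. Over all 12867 genes 46.2%, 47.5% and 49.1% were higher, with medians of -0.0139, -0.0109 and -0.0029. Among the most abundant were the arginine methyltransferase gene Carm1 (34.8 TPM), with log2 differences of -0.05, -0.08 and -0.04, and the corepressor gene Ncor1 (32.5 TPM), with -0.10, -0.04 and -0.003. The medians of this list were -0.0565, -0.0309 and 0.0313 with a surrogate variable and -0.019, -0.0334 and 0.0203 with the animal number as a covariate. Among the 13 estrogen-related receptors and mitochondrial biogenesis factors, 7, 5 and 7 were higher, with medians of 0.0068, -0.02 and 0.02. With 1 surrogate variable these medians were -0.0303, -0.0618 and -0.0116, so the direction turned after i.p. ASC and ASC-derived CM. Cycs, the cytochrome c gene, at 1000 TPM, had log2 differences of 0.86 (SE 0.39), 0.76 (SE 0.39) and 0.83 (SE 0.43). Tfam, the mitochondrial transcription factor, at 60.5 TPM, had 0.16 (SE 0.07), 0.17 (SE 0.07) and 0.10 (SE 0.08), and Cs, citrate synthase, at 145 TPM, had 0.02, -0.05 and -0.02.

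In the mitochondrial fatty acid oxidation list 19 of 19 genes were higher after i.p. ASC, 19 of 19 after i.v. ASC and 16 of 19 after ASC-derived CM, with medians of 0.26, 0.22 and 0.17 on the log2 scale. Its most abundant genes were Etfb (415 TPM) and Etfa (260 TPM), the electron transfer flavoprotein subunits, and Acadm (276 TPM), medium-chain acyl-CoA dehydrogenase. Acadm was at 231 ± 27.5 TPM (n = 6, SD) in the untreated group, 294 ± 101 (SD, n = 6) after i.p. ASC, 287 ± 92.2 (SD, n = 6) after i.v. ASC and 302 ± 125 (SD, n = 4) after ASC-derived CM, so the treated groups had the wider spread. Its log2 differences were 0.46 (SE 0.27), 0.43 (SE 0.27) and 0.49 (SE 0.30), and edgeR gave adjusted p-values of 0.771, 0.538 and 0.743.

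In the peroxisomal and microsomal list 17, 17 and 18 of 20 genes were higher, with medians of 0.25, 0.22 and 0.28. Its most abundant gene was Cyp4a2, a fatty acid ω-hydroxylase gene that PPARα is known to induce, at 1025 ± 433 TPM (n = 6, SD) in the untreated group, 2034 ± 1517 (SD, n = 6) after i.p. ASC, 2017 ± 1352 (SD, n = 6) after i.v. ASC and 2179 ± 1379 (SD, n = 4) after ASC-derived CM. Its log2 differences were 1.12 (SE 0.55), 1.11 (SE 0.55) and 1.204 (SE 0.60), with adjusted p-values of 0.771, 0.523 and 0.711 in edgeR's test. Reads shared with its close paralogs could make its value uncertain, which was not measured. The same holds for Cyp4a8 at 331 TPM (0.90, 1.06 and 1.24). Cat, catalase, at 253 TPM had 0.76 (SE 0.42), 0.63 (SE 0.42) and 0.96 (SE 0.46).

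The medians of these lists differed between settings, and marker levels are given beside them. The 12 proximal tubule markers summed to 1042 to 5446 TPM in untreated rats, 1517 to 13790 after i.p. ASC, 2137 to 13960 after i.v. ASC and 3672 to 13650 after ASC-derived CM, with Kap, a proximal tubule protein gene, the most abundant at 3502 TPM. The high sums came mostly from Kap, at 9133 TPM of 13650 in ASC-derived CM rat 2, beside Slc7a13 at 2308 TPM. In that rat Slc5a2, of the same list, was at 18.3 TPM, against 32.55 to 147.7 TPM in untreated rats. Of the 12 proximal tubule markers 7, 7 and 9 were higher than untreated, with medians of 0.23, 0.18 and 0.26. Of 5 thick ascending limb markers 4 were higher in each comparison, with medians of 0.49, 0.52 and 0.67. All 4 podocyte markers were lower in each comparison, with medians of -0.35, -0.62 and -0.51, as were all 5 endothelial markers, with medians of -0.21, -0.31 and -0.23. Both distal convoluted tubule markers tested were lower in each comparison too, with medians of -0.35, -0.69 and -0.94. After ASC-derived CM both had an unadjusted p under 0.05 in edgeR's test, a level that 6.6% of all genes reached in that comparison. In that group 4 of 5 intercalated cell markers were lower (median -0.43), 3 of them at that level. All 5 collecting duct principal cell markers were lower (median -0.14, 2 at that level). All 6 fibroblast and smooth muscle markers were higher (median 0.34, 1 at that level). After i.p. ASC and i.v. ASC the medians of these last marker lists were between -0.03 and 0.19. No marker of any of these cell types passed the threshold in edgeR's test, and their part in the pathway list medians was not tested. With the proximal tubule score as a covariate the medians of mitochondrial fatty acid oxidation were 0.15, 0.18 and 0.08, and with 1 surrogate variable 0.0416, -0.0185 and -0.0225. With the animal number as a covariate they were 0.1063, 0.0457 and 0.1118, and those of the peroxisomal list 0.1118, 0.0496 and 0.1576. The peroxisomal medians were 0.1227, 0.1466 and 0.1737 with the proximal tubule score, and 0.0014, -0.03 and 0.0581 with 1 surrogate variable. After i.v. ASC the median was -0.0065 with the urothelial score as a covariate and 0.0461 without rats 3, 9 and 13, and that of the peroxisomal list was -0.0305 and 0.0348. On the log2(TPM + 0.1) scale the median of all genes was -0.11, -0.13 and -0.07. Relative to it, mitochondrial fatty acid oxidation was at 0.25, 0.23 and 0.17 and the peroxisomal list at 0.25, 0.20 and 0.26.

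Of 14 genes of fatty acid uptake, binding and activation 8, 8 and 6 were higher, with medians of 0.0063, 0.06 and -0.05. Dbi, the acyl-CoA-binding protein gene, at 1094 TPM had log2 differences of 0.08, 0.08 and -0.12. Fabp3, a fatty acid-binding protein gene, at 433 TPM had -0.13, -0.14 and -0.35 (SE 0.16 for the last). Slc27a2, a very long-chain acyl-CoA synthetase and transporter gene, at 101 TPM had 0.67, 0.60 and 0.86. Of 19 genes of ketogenesis, fuel switch and other targets 14, 15 and 12 were higher, with medians of 0.22, 0.15 and 0.16. With 1 surrogate variable these medians were 0.0499, -0.0321 and 0.0279, and the i.v. ASC median was -0.0692 with the urothelial score, so its direction turned. The thioredoxin-interacting protein gene Txnip at 629 TPM had -0.13, -0.38 and -0.38, while Ucp2 (219 TPM) and Pdk2 (197 TPM) stayed between -0.14 and 0.16.

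Of 18 lipid droplet and adipocyte-type targets of PPARγ 16, 11 and 11 were higher, with medians of 0.12, 0.09 and 0.04. These medians were 0.038, -0.0146 and 0.0004 with 1 surrogate variable and 0.0429, 0.0036 and 0.0238 with the animal number as a covariate, and the i.v. ASC median was 0.0202 with the urothelial score. On the log2(TPM + 0.1) scale the i.v. ASC median was -0.0513, which is 0.0814 above that of all genes. Adipor1, an adiponectin receptor gene (232 TPM), Plin2, a lipid droplet coat gene (112 TPM), and Aqp7, a glycerol channel gene (86.2 TPM), had log2 differences between -0.19 and 0.54. Over the 22 rats Pparg had a rho of 0.76 with the mean log2 CPM of this list, of 0.67 with that of mitochondrial fatty acid oxidation and of 0.68 with that of the peroxisomal list. Without rats 3, 9 and 13 the rho values were 0.80, 0.59 and 0.66, and for the fatty acid oxidation lists the corresponding rho of Ppara over 22 rats was 0.08 and 0.33. For the mitochondrial list rho was 0.56 for Esrra, 0.32 for Ppargc1b, -0.09 for Rxra, -0.45 for Ppargc1a and -0.52 for Ppard. These are descriptions over kidneys that share libraries and cell mix.

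**Figure D5:**
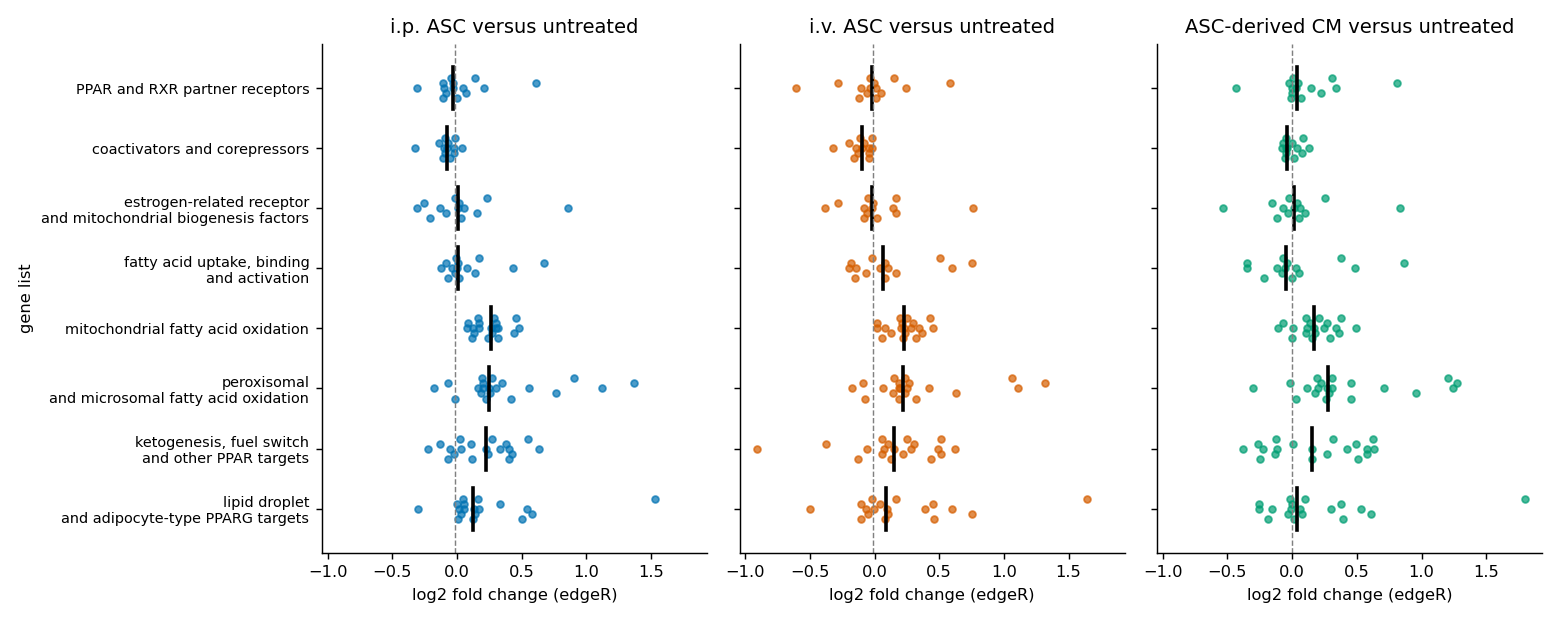
Log2 fold change against untreated kidneys of the genes of 8 lists (rows) after i.p. ASC, i.v. ASC and ASC-derived CM (left to right). Each point is a gene, the black bar is the list median, and the dashed line is the median of all 12867 genes. Points of the mitochondrial fatty acid oxidation list lie to the right of 0 for 19, 19 and 16 of 19 genes.

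Adipocyte RNA was also looked for beside Pparg, and 3 of its 6 markers were under 1 TPM in every rat. Of these, Plin1, the perilipin of adipocyte lipid droplets, was between 0 and 0.803 TPM, Lep between 0.03 and 0.266 TPM and Ucp1 between 0 and 0.752 TPM in all rats. Adipoq ran from 17.3 to 39.6 TPM and was highest in i.v. ASC rat 8, whose Pparg was 1.64 TPM. Cidec, a lipid droplet gene, ran from 3.24 to 65.8 TPM and was highest in ASC-derived CM rat 2 and i.v. ASC rat 3. The adipocyte markers summed to 39.0 to 74.1 TPM in untreated rats, 59.5 to 92.1 after i.p. ASC, 58.5 to 95.4 after i.v. ASC and 62.8 to 100 after ASC-derived CM. The high sums came from Cidec, at 65.8 TPM of 100 in rat 2 and 62.01 TPM of 95.4 in rat 3, and Cidec went with the proximal tubule gene Kap, with rho of 0.97 on TPM over the 22 rats. Pparg had a rho of 0.63 with Cidec, 0.07 with Adipoq and -0.27 with Cfd on the same scale. The mean log2 CPM of these 3 adipocyte markers had a rho of 0.78 with Pparg, and that of the podocyte markers -0.77. For the distal convoluted tubule markers rho was -0.74 and for the endothelial markers -0.70. The part of these markers in the levels of Pparg was not tested.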

How the data were processed

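Left kidneys of 22 rats were profiled. The authors deposited estimated counts per rat Entrez gene and TPM, made from trimmed reads by pseudoalignment. The submitters' processing notes name Trim Galore 0.6.4, kallisto 0.4.6 and rn6, and the study's methods name DESeq2 and a transcript package for another species, so the annotation behind the deposited values is not settled. TPM summed to 959754 to 968550 per rat. Of 17334 genes, 17179 were matched to a symbol through RefSeq (GRCr8, names only).

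Estimated counts (14.13% of them not whole) were rounded. The test was edgeR 4.0.16 (quasi-likelihood, TMM, filterByExpr) in R 4.3.3 with the 4 groups in 1 fit and Benjamini-Hochberg adjustment over 12867 genes at 0.05. It was tested on simulated data. Log2 CPM used a prior count of 2. DESeq2 1.42.0, limma 3.58.1 on log2(TPM + 1) and log2(TPM + 0.1), 1 surrogate variable from sva 3.50.0, other filters, marker scores and each rat left out were the alternatives. Counts are per gene, so reads shared by paralogs or by overlapping genes could be split in ways not given in the sources used here.

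The members and the gene lists were chosen with earlier results of these data known. Named genes were the members, Slc34a1 and Upk3a, in each pathway list the 3 genes with the highest mean TPM and up to 2 called genes of largest difference, and for each member the 3 highest and 2 lowest genes by Spearman's rho. Marker genes were named from fixed lists. Of these, Cidec, Krt5, Upk2, Psca, Slc7a13, Slc5a2 and the adipocyte markers were singled out after their values were seen. Of 223 listed genes 215 were in the files. A gene that this rule names is not reported here. Counts of rats within a group were compared only to look for a library deposited more than once, and none was found. The labels give each sample its own animal number, and whether untreated rats received vehicle is not stated.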

Additional observations from a re-analysis of the deposited data

Results flagged for a closer look

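Ppargc1a in rat 14 of the i.v. ASC group, at 26.67 TPM, stood apart from the other 5 rats of that group, which were at 8.405 to 15.19 TPM. The gap to the nearest rat was 0.628 of the whole range, just over the 95% critical value of Dixon's test for 6 samples. Of 28 sets of values examined this way it was the only one, and chance flags about 1 in 20 such sets. Rat 14 was also the only i.v. ASC rat numbered above 13, and its part in the value was not tested.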

How the results depend on the processing

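No paired analysis was possible because the animal numbers are not shared between groups. Across 12 alternatives run on all comparisons, 243 of the member values kept their direction and side of the threshold, 8 reversed and 1 became a call. The animal number as a covariate and leaving out rats 3, 9 and 13 were chosen after seeing the data. For Ppard after i.p. ASC (-0.017) the value was 0.0789 with a surrogate variable, 0.0326 with the proximal tubule score and 0.0507 with the animal number. For ASC-derived CM, Ppard was 0.0195 with a surrogate variable, and Rxra was -0.054 on log2(TPM + 1), -0.0555 on log2(TPM + 0.1), -0.0337 with a surrogate variable and -0.0374 with the proximal tubule score. DESeq2 gave 1.94 for Pparg after i.v. ASC, past the threshold, and called 28 genes after i.v. ASC and 4 after ASC-derived CM, where a fit of only 2 groups called 1 and leaving out rats 3, 9 and 13 called 3. With 1 rat left out at a time, Ppard after i.p. ASC ran from -0.0817 to 0.0425 (above 0 without i.p. ASC rat 6, i.p. ASC rat 7 or untreated rat 23), Pparg after i.v. ASC from 1.43 to 2.12, and the genes called after i.v. ASC from 0 to 14 (11 without rat 8, 14 without rat 14). After ASC-derived CM, Ppara ran from -0.0624 (without rat 21) to 0.322, Ppard from -0.158 to 0.0368 (without rat 2), Rxra from -0.0599 (without rat 21) to 0.0583 and Esrra from -0.0051 (without rat 2) to 0.133. Values that kept their sign but moved by over 1.5 times were Ppargc1b after ASC-derived CM (0.096 without rat 2 to 0.477 without rat 21), after i.p. ASC (0.1079 without rat 15 to 0.2536 without untreated rat 22) and after i.v. ASC (0.2392 without rat 9 to 0.468 without rat 8), Ppara after i.v. ASC (-0.4304 without rat 3 to -0.1564 without untreated rat 23), Rxra after i.p. ASC (-0.1888 without untreated rat 12 to -0.0852 without rat 6) and after i.v. ASC (-0.1798 without rat 3 to -0.0201 without rat 8) and Ppargc1a after i.p. ASC (-0.324 without untreated rat 12 to -0.103 without rat 5). The cause of these shifts was not tested. Of the list medians, 249 stayed within the spread and 39 moved. The low counts of Ppara, Pparg and Ppargc1b limit the precision of their values.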
